A study of Rattus norvegicus with 12 samples.

Results

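The comparison described here is the difference between 2 responses to the withdrawal of tetrodotoxin (TTX): the response of neurons depleted of Grin3a minus the response of control neurons. It was computed for every gene on log2(FPKM + 1) as (KD_TTXwd - KD_TTX) - (Ctrl_TTXwd - Ctrl_TTX), from all 12 libraries. FPKM, fragments per kilobase of transcript scaled to the mapped fragments of a library, is the level deposited by the authors. Of 10730 genes listed, 10729 were kept, and 10689 with at least 1 FPKM in at least 3 libraries were tested.

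The neurons were neuron-enriched hippocampal cultures from male and female CD (Sprague Dawley) IGS rat embryos at age E18.5. On day 1 in vitro they were infected with a pLKO.1 lentivirus. The control virus (groups Ctrl_TTX and Ctrl_TTXwd) was the empty vector and carried no hairpin, and the knockdown virus (KD_TTX and KD_TTXwd) carried a short hairpin RNA against Grin3a, for which 1 sequence is given. All 4 groups received 1 µM TTX from day 5 for 48 h and were harvested on day 7, either in TTX or 6 h after TTX had been removed. Each group holds 3 libraries, which the series' design text calls biological replicates with matched controls. Nothing says that they came from separate cultures or how they were matched, so p-values here measure the spread between these libraries, which may be technical. The samples are bulk RNA: fewer cells of a type and less RNA per cell cannot be told apart.

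Grin3a encodes GluN3A, a subunit of NMDA-type glutamate receptors that lowers their calcium entry and magnesium block and is abundant in young neurons. TTX blocks voltage-gated sodium channels and silences action potentials, and its removal lets firing resume in a network that has adapted to silence. Calcium entry through NMDA receptors and L-type channels then reaches the nucleus through kinases and calcineurin, which act on transcription factors such as CREB, SRF and MEF2. Early targets include Fos, Egr1 and Arc, and later ones include Bdnf. The study asks whether GluN3A sets how strongly returning activity drives transcription.

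The hairpin was directed against Grin3a (chr5:69420057-69564696 in the deposited table, genome build rn5 per the submitters' processing notes). Its 21 bases are given because they define the knockdown.
Grin3a shRNA: gctccatgacaagtggtacaa

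In TTX the Grin3a level was 18.6, 18.2 and 23 FPKM with the empty vector, against 9.3, 6.01 and 4.77 FPKM with the hairpin. After withdrawal the empty vector libraries held 13.8, 19.8 and 4.88 FPKM of Grin3a and the hairpin libraries 5.22, 3.32 and 2.5 FPKM. The mean with the hairpin was 33.6% of the control mean in TTX and 28.7% after withdrawal. The groups did not overlap in TTX (exact two-sided permutation test, p = 0.1, the smallest that 3 against 3 allows) and overlapped after withdrawal (exact p = 0.2). The library labelled Ctrl_TTXwd replicate 3 lay within the range of the KD_TTXwd libraries, so its label is not borne out by Grin3a, and the counts over all genes, most of the gene lists and the single genes described whose difference it moved by more than 1.5 times are also given without it. The withdrawal response of Grin3a itself was -0.77 in control and -0.72 with knockdown, a difference of 0.06 ± 0.57 (log2, SE; -0.47 without that library).

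The neuronal genes Map2, Tubb3, Snap25, Syp, Rbfox3 and Slc17a7 were present in all 12 libraries, the lowest being Rbfox3 at 10.9 to 97.7 FPKM. Summed FPKM over the kept genes ran from 428069.5 to 517702.9 per library, and how many reads stand behind a value is not known. The library labelled Ctrl_TTXwd replicate 3 had the lowest summed level of 17 glutamatergic neuron markers (427 FPKM, against 680 to 1704 in the other 11 libraries) and the highest of 15 microglia markers (2174 FPKM, against 49.7 to 886). Ctrl_TTX replicate 1 holds no value below 1.00 FPKM, whereas the lowest value in every other library is 0 to 0.0436 FPKM. That library therefore met the filter of 1 FPKM for every gene, so the filter rested on the others. A value raised to this floor would lower the control response of a low gene, which was not tested.

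No gene passed the test of the difference. With limma and Benjamini-Hochberg adjustment over 10689 genes, 0 genes (0%) had an adjusted p under 0.05, and the smallest adjusted p was 0.492. At an unadjusted p under 0.05 there were 1050 genes (9.82%): 584 (5.46%) with a positive difference, meaning a response that was higher with knockdown, and 466 (4.36%) with a negative one. That count was 511 without Ctrl_TTXwd replicate 1, 503 without KD_TTXwd replicate 1, 637 without KD_TTX replicate 2 and 676 without KD_TTXwd replicate 2, while the adjusted count remained 0 in every fit that left out 1 library. The median 95% interval of a gene reached 0.72 log2 units to either side of its difference, without adjustment for the number of genes. Genes are named below by the smallest unadjusted p and by size, as a description of where the 2 responses were farthest apart.

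The 2 responses themselves had many calls, which depended on the libraries fitted. After TTX was removed 1896 genes changed in control neurons (17.7%), of which 707 rose (6.61%) and 1189 fell (11.1%). With knockdown 1514 genes changed (14.2%), of which 529 rose (4.95%) and 985 fell (9.22%). Under quantile normalization the knockdown split was 947 higher and 932 lower. The control count was 956 without the library labelled Ctrl_TTXwd replicate 3, 1166 and 1172 without Ctrl_TTX replicates 2 and 3, and 1234 without Ctrl_TTXwd replicate 1. The knockdown count was 339, 706 and 893 without KD_TTXwd replicates 1, 2 and 3, 697 and 445 without KD_TTX replicates 1 and 2, and 2631 without Ctrl_TTX replicate 1. With only its own 6 libraries, the control response had 1 call in limma (2631 genes at an unadjusted p under 0.05), higher after withdrawal, and the knockdown response had 2501, 910 higher and 1591 lower. With replicate 2 left out of all 4 groups neither response had a call (2550 and 1660 genes at an unadjusted p under 0.05), and with replicate 3 left out of all groups control had 4 and knockdown 664. The calls of single genes below are those of the fit to all 12 libraries, and none of them holds without replicate 2.

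Genes called in both responses numbered 774, which is 40.8% of the control list and 51.1% of the knockdown list. All 774 went the same way, 272 up and 502 down, and no gene was called in opposite directions. Of the genes called in control, 93.8% had the same sign with knockdown, and of those called with knockdown 96.8% had the same sign in control. Across the 10689 genes the 2 responses, which share no library, correlated at Pearson's r = 0.65 and a Spearman rank correlation of 0.59 (genes are not independent replicates). Without the library labelled Ctrl_TTXwd replicate 3, 538 genes were called in both, all in the same direction, and the correlations were 0.58 and 0.53. By the authors' deposited q-values, 2455 of the genes tested were under 0.05 for withdrawal in control and 2043 with knockdown. Of these, 1017 were under it in both, 1012 in the same direction and 5 in opposite directions.

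**Figure D1:**
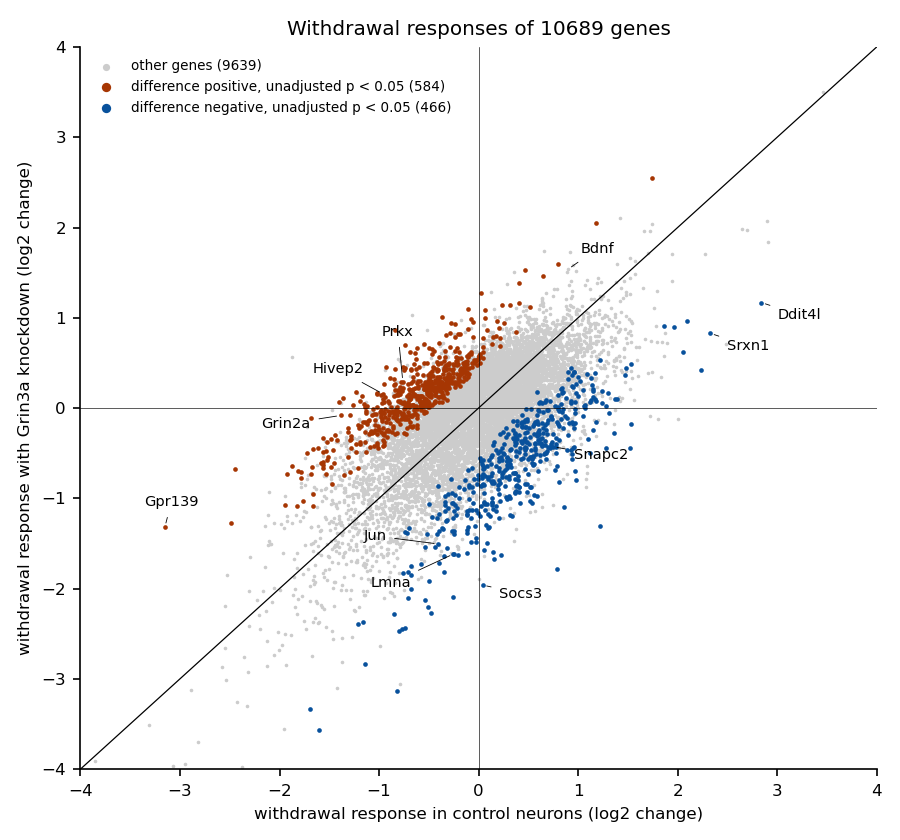
Withdrawal response with Grin3a knockdown (vertical, log2 change) against the response in control neurons (horizontal, log2 change) for the 10689 genes tested, 5 of which lie outside the axes. The diagonal marks equal responses, and 584 genes above it (orange) and 466 below it (blue) had an unadjusted p under 0.05 for the difference, none of them after adjustment.

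The 1050 genes at an unadjusted p under 0.05 fell into 6 patterns by the signs of their mean responses. In 378 genes (36%) the control mean went down and the knockdown mean went up, and 88 of these were called in control and 12 with knockdown. A further 173 genes (16.5%) went down in both, less with knockdown, and all 173 were called in control but only 10 with knockdown. In the other direction, 304 genes (29%) had a control mean that went up and a knockdown mean that went down, with 30 called in control and 37 with knockdown. Another 98 genes (9.33%) went down in both, more with knockdown, all 98 called with knockdown and 6 in control. Genes with both means up were fewer, 64 (6.1%) less with knockdown and 33 (3.14%) more. Over all genes 17.7% were called in control and 14.2% with knockdown. Where both means had the same sign, the larger response exceeded the difference, which has the larger SE. Calls of that larger response were therefore largely set by the sorting and are no support for these patterns. Without the library labelled Ctrl_TTXwd replicate 3 the 6 patterns held, in the same order, 373, 135, 434, 264, 62 and 45 of 1313 genes.

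A stricter description asks whether the response ranges overlap, from the lowest withdrawal library minus the highest TTX library to the highest minus the lowest. The ranges lay apart in 543 genes (5.08%), 353 with knockdown above control (3.3%) and 190 with knockdown below (1.78%). Without the library labelled Ctrl_TTXwd replicate 3, which leaves narrower control ranges, these were 708 and 743. Every pair of libraries went up with knockdown and down in control for 43 genes (0.402%), and the reverse held for 27 (0.253%). A difference of at least 2-fold was seen in 573 genes (5.36%), 142 of them positive and 431 negative.

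The 12 positive genes with the smallest p, at 5 FPKM or more in at least 1 group, included Hivep2, Prkaa2, Prkx, Bmi1, Fut9, Wnk3, Bcl11b, Rev3l, Fat4, Grin2a and Ralgps2. Of these, 10 fell in control neurons after withdrawal (adjusted p from 0.00271 to 0.0136, limma), and none of the 12 was called with knockdown. Rev3l and Fat4 were the 2 not called in control, at adjusted p = 0.0541 and 0.0515. The 10 calls held in each fit that left out 1 library, but none held with only the 6 control libraries (adjusted p from 0.0655 to 0.106, with all 10 at an unadjusted p under 0.05) or without replicate 2 in all groups. Differences ran from 0.86 to 1.30 and unadjusted p from 0.000463 to 0.00308, with an adjusted p of 0.492 for each. Without the library labelled Ctrl_TTXwd replicate 3 the 12 differences ran from 0.78 to 1.2, each at an unadjusted p under 0.05. The genes named by p, positive and negative, were picked by this difference in the same libraries. Fits to fewer of these libraries and the calls of the 2 responses are therefore no independent support for them.

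Hivep2 (chr1:9755846-9953696), which encodes a large zinc finger transcription factor that binds κB-like enhancers, stood at 55.2, 39.5 and 42.4 FPKM in Ctrl_TTX and 22.2, 26 and 20.6 FPKM in Ctrl_TTXwd. With knockdown it was at 43.1, 38.2 and 37 FPKM in TTX and 42, 49.2 and 40.8 FPKM after withdrawal. Every control library after withdrawal was below every library of the other 3 groups, and the knockdown groups overlapped. The responses were -0.96 in control and 0.15 with knockdown, a difference of 1.11 ± 0.23 (95% interval 0.61 to 1.61, unadjusted p = 0.000463).

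Kinases were among them. Prkaa2 (chr5:128436022-128503874), the α2 catalytic subunit of the energy sensor AMPK, was at 20.7, 19.8 and 20.3 FPKM in Ctrl_TTX and 9.67, 12 and 8.86 FPKM in Ctrl_TTXwd, against 19.1, 20.2 and 14.9 FPKM in KD_TTX and 19.6, 21 and 18.3 FPKM in KD_TTXwd. The control libraries after withdrawal were again below all others. Prkx (chrX:45378195-45420133), an X-linked kinase related to the catalytic subunit of protein kinase A, went from 31.1, 30.1 and 33.1 FPKM to 15.9, 20.6 and 18.2 FPKM in control and was at 24.9, 30.5 and 33.1 and then 33.2, 43.3 and 32.5 FPKM with knockdown. Wnk3, a kinase that controls cation-chloride cotransporters, responded by -1.12 in control and 0.03 with knockdown, a difference of 1.15 ± 0.28.

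Chromatin and transcription factors were the next group. Bmi1 (chr17:87087686-87091418), a core subunit of Polycomb repressive complex 1, stood at 67.1, 69.7 and 74.6 FPKM in Ctrl_TTX and 43.6, 51.6 and 39.9 FPKM in Ctrl_TTXwd, but at 50.3, 49.1 and 50.9 FPKM in KD_TTX and 59.2, 65.8 and 51.7 FPKM in KD_TTXwd. All control libraries were lower after withdrawal than before it, and all knockdown libraries were higher. Bcl11b, a transcription factor of hippocampal and cortical projection neurons also known as CTIP2, was at 37.2, 34.1 and 37 FPKM and then 14.6, 17.4 and 11.4 FPKM in control, and at 25.3, 26.6 and 29.2 FPKM and then 23.2, 23.8 and 18.1 FPKM with knockdown. All libraries of both genotypes were lower after withdrawal, with responses of -1.28 and -0.31 (adjusted p = 0.241 for the latter), a difference of 0.97 ± 0.24.

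Of the remaining genes, Grin2a (chr10:4524961-4936873), which encodes the GluN2A subunit of NMDA receptors, had the largest difference of the 12. It stood at 6.97, 7.31 and 8.5 FPKM in Ctrl_TTX and 2.87, 2.92 and 1.32 FPKM in Ctrl_TTXwd, and with knockdown at 6.67, 6.9 and 4.39 FPKM in KD_TTX and 6.43, 4.5 and 5.74 FPKM in KD_TTXwd. The control groups were fully separate and the knockdown groups overlapped, with a difference of 1.30 ± 0.34 (1.05 without the library labelled Ctrl_TTXwd replicate 3). Rev3l, the catalytic subunit of the translesion polymerase ζ, and Fat4, an atypical cadherin, were lower after withdrawal in every control library and higher in every knockdown library. Fut9, which builds the Lewis X sugar, and Ralgps2, an exchange factor for Ral GTPases, had differences of 1.21 ± 0.29 and 0.94 ± 0.25.

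The largest positive differences among genes whose response ranges lay apart included those of Gpr139, Runx1t1, Pclo, Pgap1 and Grin2a, and the 6 largest ran from 1.83 down to 1.30. Gpr139, a G protein-coupled receptor of the brain, stood at 94, 26.6 and 32 FPKM in Ctrl_TTX and 4.6, 4.66 and 2.9 FPKM in Ctrl_TTXwd, and with knockdown at 36.2, 21 and 17 FPKM in KD_TTX and 9.68, 9.14 and 7.79 FPKM in KD_TTXwd. It fell by 3.15 log2 units in control (adjusted p = 0.00249), and its knockdown response of -1.32 had an adjusted p of 0.0536. The highest TTX value came from Ctrl_TTX replicate 1, and the difference ran from 1.28 to 2.17 when single libraries were left out. Runx1t1, a transcriptional corepressor, fell by 2.45 in control (adjusted p = 0.00557) and was at -0.67 with knockdown (adjusted p = 0.306). Pgap1, which trims the lipid anchor of GPI-linked proteins, was lower after withdrawal in every control library and higher in every knockdown library, a difference of 1.31 ± 0.39. In the authors' deposited table the knockdown changes of Gpr139, Runx1t1 and Pgap1 were -1.48, -0.70 and 0.65 (q-values 0.00102, 0.0274 and 0.0434). Those of Pclo and Grin2a were 0.036 and -0.11 (q-values 0.954 and 0.858).

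The 12 negative genes with the smallest p were Snapc2, Ddit4l, Hebp1, Nubp2, Chchd5, Lmna, Lman2, Trim47, Pc, Tapbp, Rhob and Serf2. They divide by which response was called: Snapc2, Ddit4l, Nubp2, Chchd5 and Serf2 rose in control, whereas Lmna, Lman2, Trim47, Tapbp and Rhob fell with knockdown. Ddit4l also rose with knockdown, and Hebp1 and Pc were called in neither. Differences ran from -1.67 to -0.75 and unadjusted p from 0.000438 to 0.00305, again with an adjusted p of 0.492 for each. Without the library labelled Ctrl_TTXwd replicate 3 they ran from -1.51 to -0.73. Of the 21 calls among the 24 genes, 16 held in each fit that left out 1 library. The call of Chchd5 in control held in 2 of the 12 such fits, that of Serf2 in 8, and the knockdown calls of Ddit4l, Tapbp and Lman2 in 8, 7 and 10.

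Snapc2 (chr12:4690240-4693261), a subunit of the complex that drives small nuclear RNA genes, stood at 22.6, 29.9 and 28 FPKM in Ctrl_TTX and 50.3, 42.4 and 43.8 FPKM in Ctrl_TTXwd. It was at 39.5, 37.2 and 37 FPKM in KD_TTX and 22, 30.4 and 32.4 FPKM in KD_TTXwd. Every control library was higher after withdrawal and every knockdown library was lower, with responses of 0.75 and -0.43 and a difference of -1.18 ± 0.24 (unadjusted p = 0.000438). Hebp1, a haem-binding protein, and Chchd5, a small protein of the mitochondrial intermembrane space, had the same arrangement, with differences of -0.92 ± 0.23 and -1.17 ± 0.29.

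Ddit4l (chr2:261430990-261433647), an inhibitor of mTOR signalling, was among the genes that rose most in control. It stood at 8.59, 7.53 and 4.12 FPKM in Ctrl_TTX and 48, 42.8 and 71 FPKM in Ctrl_TTXwd, a rise of 2.84 log2 units (adjusted p = 0.00101). With knockdown it went from 13.5, 20.8 and 16.7 FPKM to 32.9, 37.2 and 48.2 FPKM, a rise of 1.17 (adjusted p = 0.0188). Both genotypes were higher after withdrawal in every library, and the KD_TTX libraries were all above the Ctrl_TTX libraries before it. The KD_TTX libraries also lay wholly above Ctrl_TTX for Snapc2, Lmna, Jun and Junb, among others. They lay wholly below Ctrl_TTX for Bmi1, Bcl11b, Rhob, Grin2a, Grin2b, Gria2, Homer1 and Idi1, among others. The response difference of such a gene includes this gap between genotypes in TTX. Nubp2, which helps assemble cytosolic iron-sulphur clusters, rose by 0.80 in control and was at -0.18 with knockdown.

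Lmna (chr2:207245235-207265905), which encodes the nuclear envelope proteins lamin A and C, was at 20, 26.3 and 25.9 FPKM in Ctrl_TTX and 29, 14.1 and 19.1 FPKM in Ctrl_TTXwd, with overlap. With knockdown it went from 28.9, 29.7 and 31.6 FPKM to 7.05, 8.78 and 12.2 FPKM, a fall of all libraries below every control library. Rhob (chr6:43472712-43474862), a small GTPase whose gene responds early to stimuli, was at 164, 190.1 and 198 FPKM and then 176, 156 and 165 FPKM in control, and at 133, 115 and 136 FPKM and then 73.3, 64.1 and 67.3 FPKM with knockdown. Its knockdown response was -0.89 (adjusted p = 0.00496) and its control response -0.15 (adjusted p = 0.484). Lman2, a cargo lectin of the early secretory pathway, Trim47, a TRIM family ubiquitin ligase, and Tapbp, the tapasin that loads peptides on MHC class I, fell with knockdown by 1.08, 1.44 and 1.05 log2 units.

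Size, rather than p, added Socs3, Metrn, Nkain4, Prkcdbp and Tnfrsf12a to the negative side. Socs3, a feedback inhibitor of cytokine signalling, stood at 3.49, 5.81 and 4.95 FPKM in Ctrl_TTX and 4.01, 3.04 and 8.78 FPKM in Ctrl_TTXwd. It was at 13.4, 8.35 and 4.23 FPKM in KD_TTX and 0.891, 1.1 and 2.01 FPKM in KD_TTXwd, so all knockdown libraries were lower after withdrawal and the control groups overlapped. The difference was -2.0 ± 0.56, or -1.63 if the library labelled Ctrl_TTXwd replicate 3 was left out. Its knockdown call (adjusted p = 0.0108) was lost without KD_TTXwd replicate 1. Metrn, which encodes the secreted factor meteorin, and Tnfrsf12a, the receptor of the cytokine TWEAK, had differences of -1.83 ± 0.57 and -1.56 ± 0.47.

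**Figure D2:**
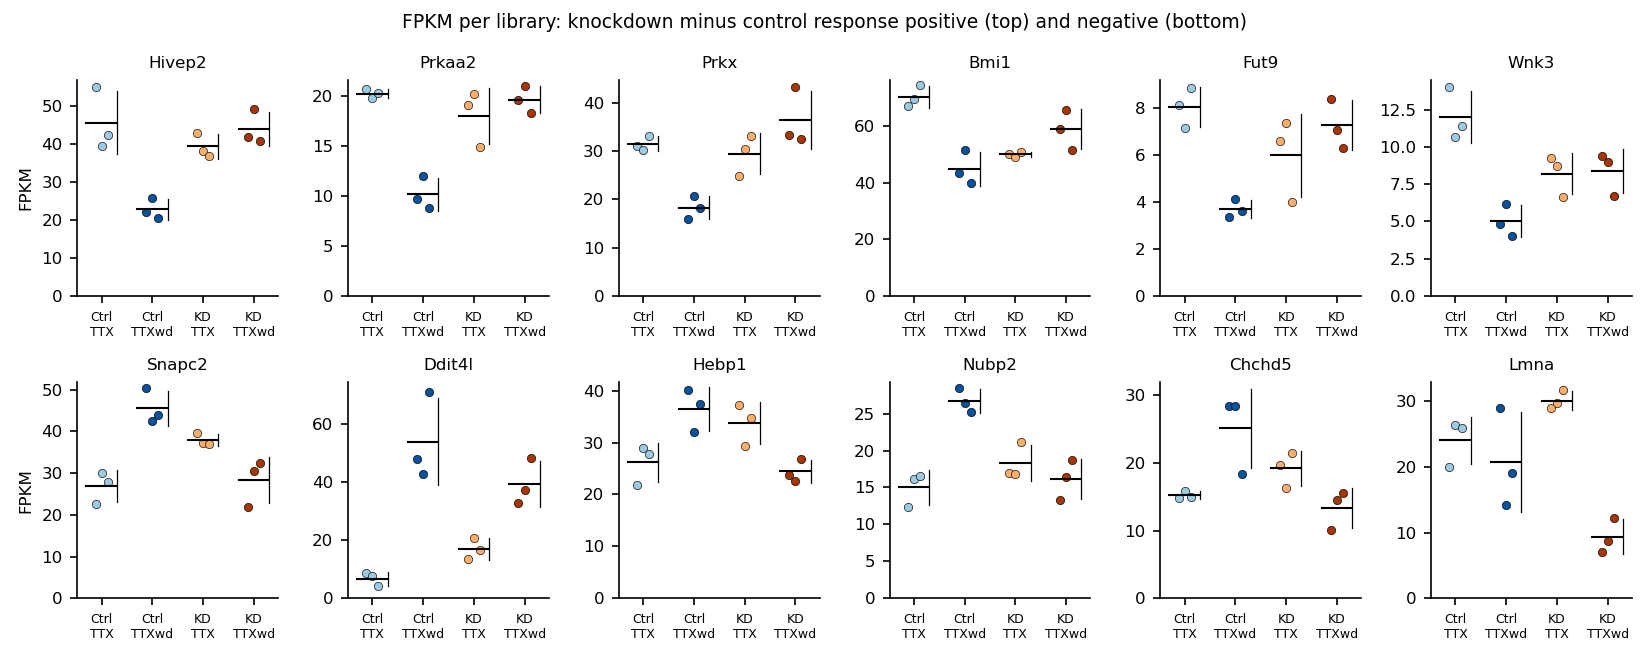
FPKM in each of the 12 libraries (points), with the group mean and ± 1 SD (lines), for 6 positive (top row) and 6 negative (bottom row) genes among those with the smallest unadjusted p. In the top row the Ctrl_TTXwd libraries lie below the Ctrl_TTX libraries while the knockdown groups overlap or, for Bmi1, lie higher after withdrawal. In the bottom row the control libraries are higher after withdrawal for 5 genes and overlap for Lmna. The knockdown libraries are lower after withdrawal for Lmna, Snapc2, Hebp1 and Chchd5.

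Promoter windows of RefSeq (build GRCr8, from 250 bases before to 50 after the annotated start) were available for 7744 of the 10689 genes tested, and for 16 of the 24 genes with the smallest p. They were searched on both strands for the CREB motif CRE (TGACGTCA), the AP-1 motif (TGANTCA), the antioxidant response element (TGACNNNGC, which can overlap an AP-1 match), and for the MEF2 and serum response motifs by name. CRE was present in 3.33% of all windows, in 2.2% of the 409 windows of the positive genes at an unadjusted p under 0.05 and in 4.27% of the 351 windows of the negative ones. The shares were 4.46%, 2.69% and 5.13% for AP-1 and 14.9%, 13.2% and 17.1% for the antioxidant response element. The MEF2 motif was present in 0.232%, 0% and 0.285% and the serum response motif in 1.15%, 1.22% and 1.71%. Median GC content was 61.5% over all windows, 64.3% for the positive and 60.7% for the negative genes. Of the 16 windows, 3 held a match, and they are printed with it in capitals: Bmi1 (chr17:86243994-86244293, plus strand, antioxidant response element), Lmna (chr2:176258186-176258485, minus strand, AP-1) and Tapbp (chr20:4967828-4968127, minus strand, antioxidant response element on the opposite strand). A match is a run of letters and not a shown binding site.
Bmi1: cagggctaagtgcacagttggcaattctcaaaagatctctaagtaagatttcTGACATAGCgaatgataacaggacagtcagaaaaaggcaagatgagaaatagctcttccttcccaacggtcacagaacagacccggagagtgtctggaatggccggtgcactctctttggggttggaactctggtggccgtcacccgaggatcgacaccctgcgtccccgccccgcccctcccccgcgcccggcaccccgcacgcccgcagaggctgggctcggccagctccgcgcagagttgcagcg
Lmna: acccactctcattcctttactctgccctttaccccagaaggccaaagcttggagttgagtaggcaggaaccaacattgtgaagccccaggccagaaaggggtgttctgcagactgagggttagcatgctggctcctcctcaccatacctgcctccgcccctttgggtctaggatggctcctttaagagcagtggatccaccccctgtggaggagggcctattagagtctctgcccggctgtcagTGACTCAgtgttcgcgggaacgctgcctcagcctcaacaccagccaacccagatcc
Tapbp: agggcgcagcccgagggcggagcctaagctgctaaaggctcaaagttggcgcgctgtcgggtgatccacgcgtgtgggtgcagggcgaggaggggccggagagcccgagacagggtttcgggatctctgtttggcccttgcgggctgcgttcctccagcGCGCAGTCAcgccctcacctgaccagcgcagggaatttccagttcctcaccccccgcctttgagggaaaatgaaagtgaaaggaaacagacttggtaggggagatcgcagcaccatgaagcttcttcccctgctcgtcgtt

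Activity-induced genes did not move as a block. The list held 21 tested transcription factors, of which 16 had a negative difference and 5 a positive one, with a median of -0.30 (all genes, -0.0036) and a range of -0.41 to -0.21 when single libraries were left out. At an unadjusted p under 0.05, 3 were negative (Jun, Junb and Ier2) and 2 positive (Nr4a2 and Nr4a3), against 4.36% and 5.46% of all genes. In control 1 member rose and 4 fell, and with knockdown 1 rose and 8 fell, where over all genes 6.61% rose and 11.1% fell in control and 4.95% and 9.22% with knockdown. Crem, a CREB-family repressor, rose in both, by 1.38 (adjusted p = 0.005) and 1.40 (adjusted p = 0.00526).

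Jun and Junb encode partners of Fos in the AP-1 factor. Jun was at 94.6, 78.5 and 62.1 FPKM in Ctrl_TTX and 82.5, 54 and 44 FPKM in Ctrl_TTXwd, and with knockdown at 97.7, 112 and 104 FPKM in KD_TTX and 35.8, 38.6 and 33.9 FPKM in KD_TTXwd. It fell by 1.51 with knockdown (adjusted p = 0.00396), where the groups were wide apart, and its control response was -0.40 (adjusted p = 0.219), with overlap. Junb fell by 2.47 with knockdown (adjusted p = 0.00513), from 20.4, 25.8 and 19.8 FPKM to 1.42, 3.42 and 5.49 FPKM, against 8.34, 16.7 and 13 FPKM and then 11.6, 4.48 and 5.33 FPKM in control. The differences were -1.1 ± 0.31 and -1.67 ± 0.55, and each knockdown call held in each fit that left out 1 library. The opposite sign was seen for Nr4a3, an orphan nuclear receptor, which fell by 1.45 in control (adjusted p = 0.00581) and was at -0.30 with knockdown. Fos ranged from 12.8 to 24.9 FPKM in Ctrl_TTX, 14.2 to 22.7 in Ctrl_TTXwd, 15.7 to 32.1 in KD_TTX and 10.9 to 30.2 in KD_TTXwd, so all 4 groups overlapped. Its difference was -0.24 ± 0.55 (-0.09 without the library labelled Ctrl_TTXwd replicate 3), and that of Egr1 -0.74 ± 0.87.

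Arc, a regulator of AMPA receptor removal, was at 1.46, 1.11 and 1.17 FPKM in Ctrl_TTX and 4.88, 2.39 and 2.73 FPKM in Ctrl_TTXwd, and with knockdown at 3.69, 1.58 and 1.27 FPKM in KD_TTX and 1.84, 1.16 and 2.16 FPKM in KD_TTXwd. All control libraries were higher after withdrawal, but the response of 0.91 did not pass (adjusted p = 0.0556), and the knockdown groups overlapped. The difference was -1.07 ± 0.42 (unadjusted p = 0.0261), or -1.16 if the library labelled Ctrl_TTXwd replicate 3 was left out. In the authors' deposited table the log2 change of Arc was 1.42 (q-value 0.00387) in control and -0.34 (q-value 0.621) with knockdown. Bdnf, which encodes a neurotrophin, stood at 8.6, 7.4 and 6.09 FPKM in Ctrl_TTX and 11.1, 22.2 and 12.2 FPKM in Ctrl_TTXwd, and with knockdown at 5.25, 9.12 and 11 FPKM in KD_TTX and 19.4, 26.5 and 32.1 FPKM in KD_TTXwd. It rose by 1.54 with knockdown (adjusted p = 0.00992), a call that held in each fit that left out 1 library, and its control response was 0.90 (adjusted p = 0.0611). Both genotypes were higher after withdrawal in every library. The difference of 0.64 ± 0.43 had a 95% interval of -0.30 to 1.58, which holds both no difference and a difference of more than 2-fold, and was 0.52 without that library. In the authors' deposited table the change was 1.04 (q-value 0.00184) in control and 1.62 (q-value 0.00102) with knockdown.

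Homer1, a postsynaptic scaffold whose short form is induced by activity, was at 35.7, 34.9 and 36.1 FPKM, 22.9, 29.5 and 26.4 FPKM, 23.8, 34.1 and 33.6 FPKM and 41.2, 38.7 and 32.6 FPKM in the same order of groups. Its control libraries were all lower after withdrawal and its response ranges lay apart, with a difference of 0.73 ± 0.24 (unadjusted p = 0.0104). Over the 28 tested activity-induced effectors, 14 differences were positive and 14 negative, with a median of 0.029. Of these, 4 positive and 3 negative genes had an unadjusted p under 0.05, against 5.46% and 4.36% of all genes. Gadd45g, a stress and DNA demethylation factor, fell with knockdown by 1.2 (adjusted p = 0.0259, a call lost in 6 of the 12 fits that left out 1 library) and was at 0.11 in control. Rgs2, Tac1, Rgs4 and Sorcs3 rose in both genotypes, and the control calls of Rgs4 and Sorcs3 held in 7 and 8 of those 12 fits and the other 6 calls in all 12. Nr4a1, Npas4 and Mef2c were not analysed here.

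Mef2a and Mef2d encode MEF2 transcription factors, which calcineurin activates and class IIa histone deacetylases hold back. Mef2a fell by 1.30 in control (adjusted p = 0.00569) and by 0.77 with knockdown (adjusted p = 0.0414), a difference of 0.53 ± 0.32. Mef2d fell by 1.41 and 1.2 (adjusted p = 0.0142 and 0.0286), a difference of 0.21 ± 0.45 (0.00 without the library labelled Ctrl_TTXwd replicate 3). The knockdown calls were the weaker ones, held by Mef2a in 4 and by Mef2d in 7 of the 12 fits that left out 1 library, and the control call of Mef2d was lost without the library labelled Ctrl_TTXwd replicate 3. Among the deacetylases Hdac9 had a difference of 1.17 ± 0.44 (unadjusted p = 0.0218, 0.74 without that library), and Hdac4 and Hdac5 of -0.01 and -0.33 (Hdac5 -0.71 without it). Camk4, a kinase that carries calcium signals to CREB, fell by 1.56 in control (adjusted p = 0.00327) and was at -0.59 with knockdown (adjusted p = 0.0861), a difference of 0.97 ± 0.31 (0.70 without that library).

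Receptors of the inhibitory transmitter GABA had the highest median of the 33 lists. All 11 tested GABA-A subunits had a positive difference, where 49.7% of all genes did, and the median was 1.02. It was 0.72 without the library labelled Ctrl_TTXwd replicate 3, with 11 of 11 positive, and reached 1.40 when other libraries were left out. At an unadjusted p under 0.05 there were 4 members, among them Gabra5 and Gabrb2, where 9.82% of all genes had such a p. In control 1 member was called, as lower, a call held in 5 of the 12 fits that left out 1 library, and with knockdown none was called. Over all genes 11.1% were called lower in control and 14.2% were called with knockdown. These subunits form the chloride channel of fast inhibition, and many of their genes lie in shared clusters.

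Gabra5, the extrasynaptic α5 subunit of hippocampus, was at 233, 130.1 and 143 FPKM and then 75.5, 139 and 48.1 FPKM in control, and at 132, 127 and 135 FPKM and then 146, 189 and 115 FPKM with knockdown. The groups of each genotype overlapped, and the highest TTX value came from Ctrl_TTX replicate 1. Gabrb2, a β subunit, had means of 27.2 ± 1.14 and 17.6 ± 8.85 FPKM in control and 20.4 ± 3.93 and 28.1 ± 6.31 FPKM with knockdown (SD, n = 3). The differences were 1.19 ± 0.49 and 1.18 ± 0.47 (unadjusted p = 0.0325 and 0.029), and 0.83 and 0.72 if the library labelled Ctrl_TTXwd replicate 3 was left out, and the smallest of the 11 was 0.52 ± 0.41 for Gabrg1.

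**Figure D3:**
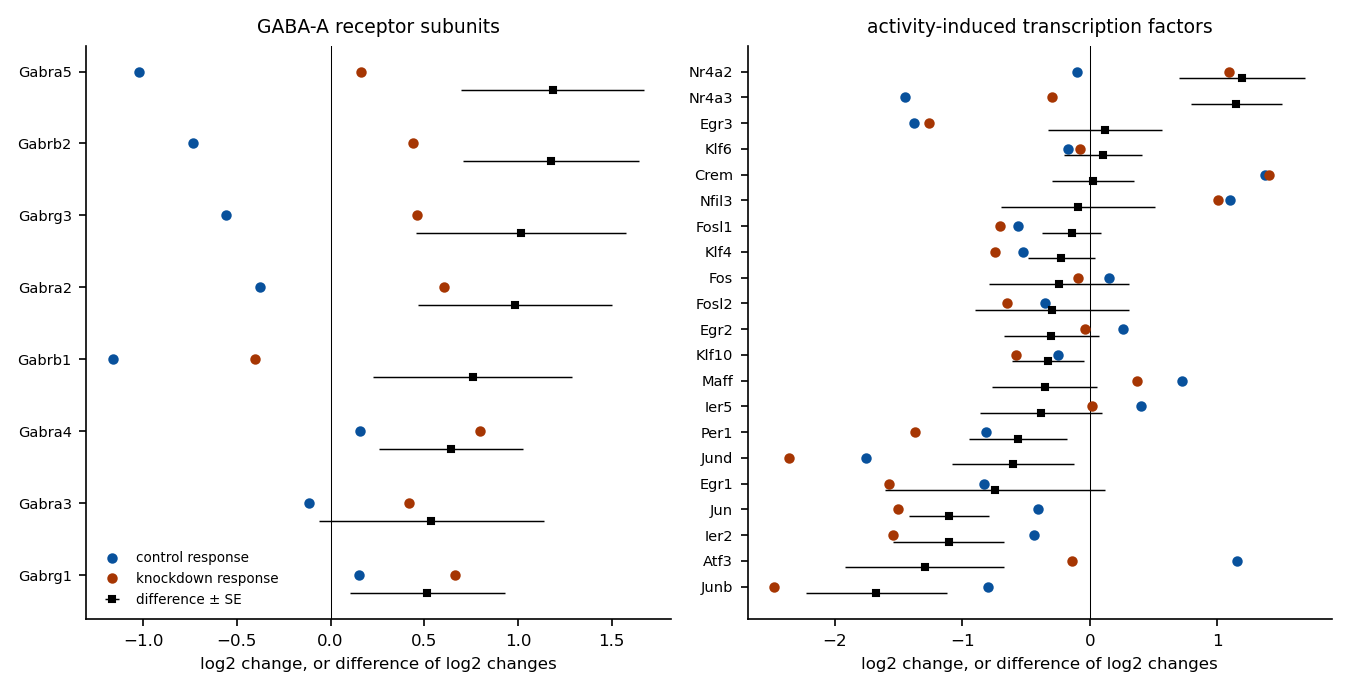
Withdrawal responses in control (blue) and with knockdown (orange) and their difference ± SE (black squares), in log2 units, for 8 of the 11 tested GABA-A receptor subunits (left) and 21 activity-induced transcription factors (right). All 8 differences on the left are above 0, whereas on the right 16 are below 0 and 5 above.

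Of the other NMDA receptor subunits, Grin2b was on the same side as Grin2a. Grin2b fell in both genotypes, from 45.5, 37.8 and 39.1 FPKM to 13.3, 13.1 and 5.29 FPKM in control and from 32.3, 33.8 and 29.2 FPKM to 18, 13.7 and 12.6 FPKM with knockdown. Its changes were -1.94 (adjusted p = 0.00339) and -1.07 (adjusted p = 0.0276, a call held in 6 of the 12 fits that left out 1 library). The difference was 0.87 ± 0.39 and dropped to 0.48 without the library labelled Ctrl_TTXwd replicate 3. Grin1, the obligatory subunit, had a difference of 0.01 ± 0.40, and Grin2d of -0.49 ± 0.36. Over the 6 subunits the median was 0.035, and -0.41 without that library.

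In the AMPA and kainate receptor list 12 of 19 differences were positive, with a median of 0.11 that stayed between 0.030 and 0.48 when single libraries were left out. Without the library labelled Ctrl_TTXwd replicate 3, 10 of the 19 were positive. Gria2, Gria3 and Neto2 had an unadjusted p under 0.05, where 9.82% of all genes did. Gria2, the subunit that makes AMPA receptors impermeable to calcium, was at 226, 131 and 136 FPKM in Ctrl_TTX and 86.3, 108 and 98 FPKM in Ctrl_TTXwd, and with knockdown at 111, 98.2 and 89 FPKM in KD_TTX and 118, 90.9 and 99.9 FPKM in KD_TTXwd. Its difference was 0.76 ± 0.30. Neto2, a kainate receptor auxiliary protein, fell by 0.75 in control (adjusted p = 0.0153, lost without Ctrl_TTXwd replicate 1 or 3) and was at 0.07 with knockdown.

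Ion channel lists lay on the same side. The median difference was 0.63 for 8 voltage-gated sodium channel genes (7 positive), 0.46 for 15 calcium channel genes (13 positive) and 0.44 for 34 potassium and HCN channel genes (26 positive). Leaving out the library labelled Ctrl_TTXwd replicate 3 gave medians of 0.46, 0.28 and 0.26, with 7, 9 and 23 genes positive. Unadjusted p was under 0.05 for 2 sodium channel genes, 1 of each sign, among them Scn2a1, a pore-forming subunit, at 1.11 ± 0.47 (0.72 without that library), for no calcium channel gene, and for 5 potassium and HCN channel genes, all positive. Over all genes 9.82% had such a p. Kcnd2, the A-type channel Kv4.2 of dendrites, and Kcnj3, the GIRK1 channel, had differences of 1.06 ± 0.38 and 0.96 ± 0.31.

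At the synapse, 19 of 25 vesicle and release genes had a positive difference, with a median of 0.43. Without the library labelled Ctrl_TTXwd replicate 3, 14 of the 25 were positive, with a median of 0.19. In control 9 of the 25 fell (11.1% of all genes did), and with knockdown 2 did (9.22% of all genes). Pclo, the active zone protein Piccolo, was at 39.6, 17.5 and 15.7 FPKM in Ctrl_TTX and 8.63, 10.1 and 5.41 FPKM in Ctrl_TTXwd, and with knockdown at 19.4, 17.1 and 10.1 FPKM in KD_TTX and 19.2, 15.5 and 13.1 FPKM in KD_TTXwd, a difference of 1.46 ± 0.50. Its fall in control (adjusted p = 0.0224) was not called without that library. Postsynaptic scaffolds fell in both genotypes, 15 of 25 in control and 11 with knockdown (11.1% and 9.22% of all genes), and their median difference of 0.26 was -0.070 without that library.

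**Figure D4:**
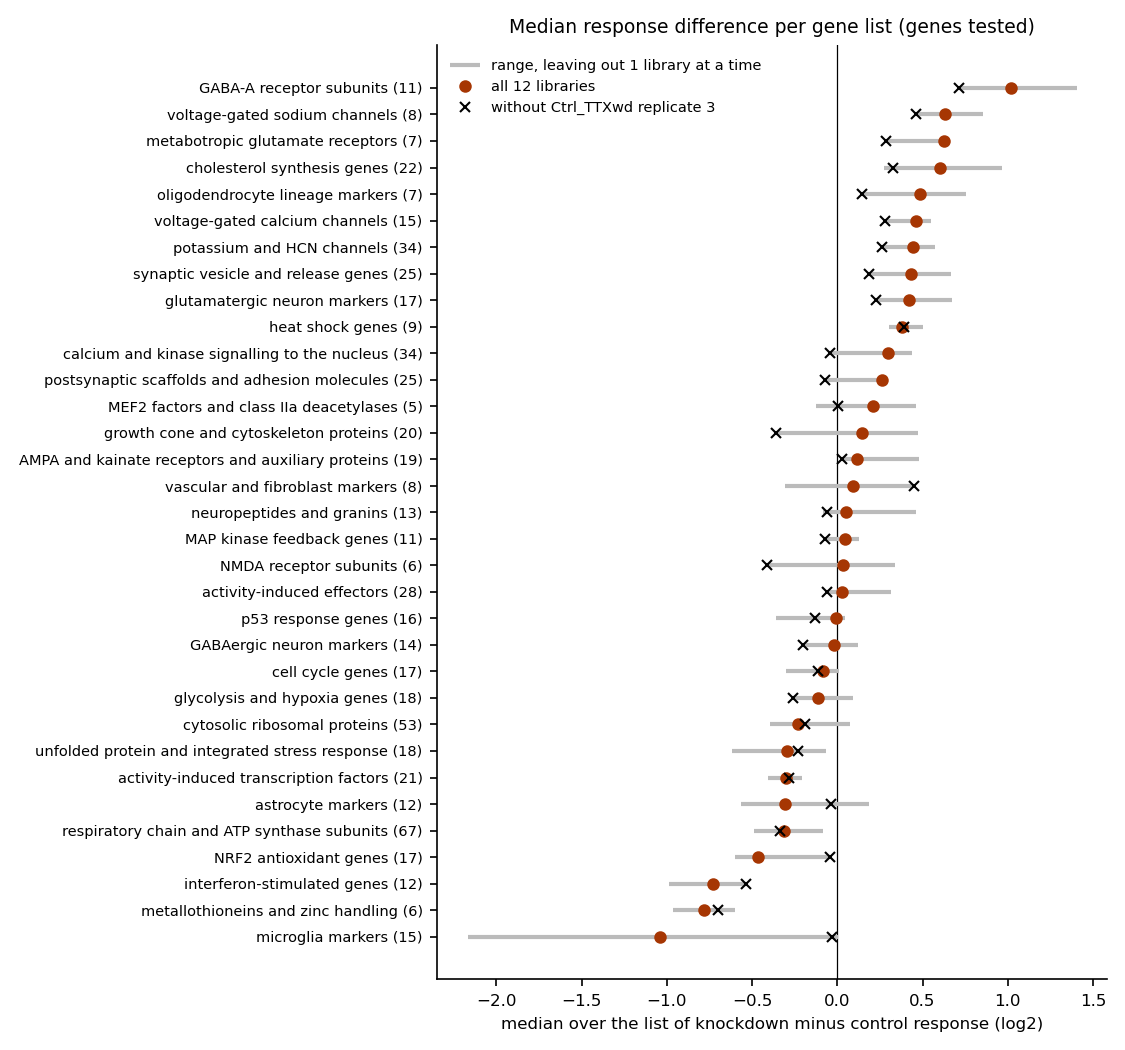
Median difference between the withdrawal responses (knockdown minus control, log2) for 33 gene lists, with the number of genes tested in parentheses. Orange points use all 12 libraries, crosses leave out Ctrl_TTXwd replicate 3, grey bars span the fits without 1 library, and the vertical line marks the median of all genes, -0.0036.

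Metal and oxidant defence genes included genes that rose in control and were not called with knockdown. Mt3, a metallothionein of brain, stood at 271, 428 and 493 FPKM in Ctrl_TTX and 1694, 1216 and 2016 FPKM in Ctrl_TTXwd, a rise of 2.06 (adjusted p = 0.00474). With knockdown it was at 477, 494 and 836 FPKM and 752, 732 and 1290.0 FPKM, a response of 0.62 (adjusted p = 0.238), with overlap. Mt2A, another metallothionein, rose by 2.24 in control (adjusted p = 0.0121) and was at 0.42 with knockdown. Their differences were -1.44 ± 0.47 and -1.82 ± 0.68 (unadjusted p = 0.0108 and 0.0207), and they were -1.28 and -1.69 when the library labelled Ctrl_TTXwd replicate 3 was left out. The list of 6 metallothionein and zinc-handling genes had a median of -0.78 (-0.70 without that library), and 4 of the 6 were negative.

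Targets of the antioxidant factor NRF2 had a negative difference in 14 of 17 cases, with a median of -0.46. Srxn1, which repairs oxidised peroxiredoxins, went from 6.47, 7.81 and 6.64 FPKM to 30.1, 38.7 and 50.6 FPKM in control, a rise of 2.33 (adjusted p = 0.00327), and from 10.1, 24.3 and 27.6 FPKM to 31.6, 30.4 and 42.7 FPKM with knockdown (0.83, adjusted p = 0.104). The KD_TTX libraries were all above the Ctrl_TTX libraries, and the withdrawal groups overlapped. The difference was -1.50 ± 0.45 (-1.31 without the library labelled Ctrl_TTXwd replicate 3). Hmox1, haem oxygenase 1, and Gstp1, a glutathione transferase, had differences of -1.72 ± 0.65 and -0.95 ± 0.40. In the authors' deposited table the knockdown changes of Srxn1 and Gstp1 were 0.76 (q-value 0.0201) and 0.99 (q-value 0.00102). That of Hmox1 was -0.36 (q-value 0.369). In control 7 of the 17 genes rose and with knockdown 4 did, where 6.61% and 4.95% of all genes rose. Over the list the median was -0.042 without that library, with 7 positive and 10 negative. That library also held the highest microglia marker sum, and the part of either in the result was not tested.

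Interferon-stimulated genes were negative in 11 of 12 cases, with a median of -0.73 and, without the library labelled Ctrl_TTXwd replicate 3, -0.54 with the same 11 of 12. Isg15, a ubiquitin-like modifier, and Ifi35 rose in control by 1.25 and 1.38 (adjusted p = 0.00739 and 0.0243), the latter call lost in 3 of the 12 fits that left out 1 library. No member was called with knockdown, where 14.2% of all genes were, and 6.61% of all genes rose in control. Psmb9, a subunit of the immunoproteasome, had a difference of -1.09 ± 0.38 (unadjusted p = 0.0154).

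Respiratory chain and ATP synthase subunits had a negative difference in 49 of 67 cases, with a median of -0.31 and a range of -0.49 to -0.083 when single libraries were left out, and 6 of the 67 had an unadjusted p under 0.05, where 9.82% of all genes did. Cox8a, a subunit of cytochrome c oxidase, fell in both genotypes, by 1.21 in control (adjusted p = 0.0221, held in 8 of the 12 fits that left out 1 library) and by 2.39 with knockdown (adjusted p = 0.00274). Cholesterol synthesis genes lay on the other side, 17 of 22 positive with a median of 0.60 (14 of 22 and 0.32 without the library labelled Ctrl_TTXwd replicate 3). Idi1, an isomerase of the isoprenoid pathway, stood at 111, 85.8 and 107 FPKM in Ctrl_TTX and 41.1, 126 and 32.8 FPKM in Ctrl_TTXwd, and with knockdown at 49.8, 65 and 72.9 FPKM in KD_TTX and 98.6, 196 and 75.7 FPKM in KD_TTXwd, a difference of 1.71 ± 0.64. Replicate 2 was the highest library in both withdrawal groups, and both responses missed the threshold (adjusted p = 0.211 and 0.22).

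Markers of cell types moved beside these genes. Glutamatergic neuron markers were positive in 14 of 17 cases, with a median difference of 0.42. Without the library labelled Ctrl_TTXwd replicate 3, 10 of the 17 markers were positive, with a median of 0.23. Their summed level was 1496 to 1704 FPKM in Ctrl_TTX, 427 to 1030 in Ctrl_TTXwd, 1067 to 1272 in KD_TTX and 680 to 912 in KD_TTXwd. Neurod6, a transcription factor of these neurons, fell by 1.68 in control (adjusted p = 0.0241, lost without Ctrl_TTX replicate 2 or 3) and was at -0.11 with knockdown. GABAergic neuron markers had a median of -0.019, with 4 positive and 10 negative (-0.20, with 2 and 12, without the library labelled Ctrl_TTXwd replicate 3). Oligodendrocyte lineage markers had a median of 0.49, with 6 of 7 positive (0.14, with 5 of 7, without that library). The GABA-A, ion channel and vesicle lists above had medians on the same side as the glutamatergic markers, whereas the NMDA receptor list had not once that library was left out. The part of cell composition in these lists was not tested.

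All 15 microglia markers had a negative difference, with a median of -1.04 and 0 at an unadjusted p under 0.05. The median was -0.029, with 6 positive and 9 negative, once the library labelled Ctrl_TTXwd replicate 3 was left out, and ran from -2.17 to 0.0025 over the fits that left out 1 library. By mean log2 level, the KD_TTXwd libraries were at 4.25, 1.76 and 4.69 for replicates 1, 2 and 3. Each was below the Ctrl_TTXwd library of the same number, at 4.98, 2.60 and 6.35, but the groups overlapped. What libraries of the same number share is not stated. In TTX the levels in the same order were 4.76, 4.49 and 3.06 with knockdown and 4.70, 4.27 and 3.38 in control. The summed level of the microglia markers was 235 to 676 FPKM in Ctrl_TTX, 121 to 2174 in Ctrl_TTXwd, 198 to 719 in KD_TTX and 49.7 to 652 in KD_TTXwd, and no marker was at 0 in any library. Astrocyte markers had a median of -0.31, with 3 positive and 9 negative. Without the library labelled Ctrl_TTXwd replicate 3 the median was -0.040, with 6 positive and 6 negative. Gfap, the astrocyte filament protein, was the only 1 of the 12 at an unadjusted p under 0.05, with a difference of -1.85 ± 0.71 (unadjusted p = 0.0236). Vascular and fibroblast markers summed to 78.1 to 88.0 FPKM in KD_TTXwd and to 29.0 to 65.4 FPKM in the other 3 groups. Over the 8 markers the median difference was 0.094, with 5 positive and 3 negative, and their mean log2 levels overlapped between groups. Without the library labelled Ctrl_TTXwd replicate 3 the median of these 8 was 0.45, with 7 positive and 1 negative. It ran from -0.31 to 0.45 over the fits that left out 1 library. Dcn, decorin, was the 1 member called, higher with knockdown by 1.74 (adjusted p = 0.0158, held in 8 of the 12 fits that left out 1 library), and Col1a1, a collagen, had a knockdown response of -0.88.

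A property that no list used was also graded with the difference, the span of the gene's locus from start to end. The genes were split into 5 groups of nearly equal size by span. In the group with the shortest spans (0.18 to 7.70 kb) the median difference was -0.29, and in the following groups it was -0.15, -0.022, 0.14 and 0.25, the last with spans of 76.1 to 2350 kb. Of the 466 negative genes at an unadjusted p under 0.05, 189 lay in the group of shortest spans and 28 in the longest, and of the 584 positive ones 36 and 264. Across genes the rank correlation of span with the difference was 0.38, with or without the library labelled Ctrl_TTXwd replicate 3, and with the control and knockdown responses -0.21 and 0.10 (genes of 1 set of libraries, not independent). The median span was 115 kb for the 12 positive genes named by p and 6.06 kb for the 12 negative ones.

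After each library was corrected for a smooth trend of its values on span, all 12 positive and 11 of the 12 negative genes kept an unadjusted p under 0.05, with differences of 0.62 to 1.16 and of -1.34 to -0.38. Rhob was the exception, at -0.38. These genes had been picked by their p in the same libraries, so the corrected fit is no independent test of them. The median of the GABA-A subunits was 0.74 under this correction, that of the activity-induced transcription factors -0.099, that of the NRF2 targets -0.28 and that of the respiratory chain -0.12. The calcium channel, potassium and HCN channel and vesicle lists were at 0.21, 0.24 and 0.21, and the postsynaptic scaffolds and NMDA receptor subunits changed sign, to -0.051 and -0.11. What moves with span in these libraries was not tested.

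**Figure D5:**
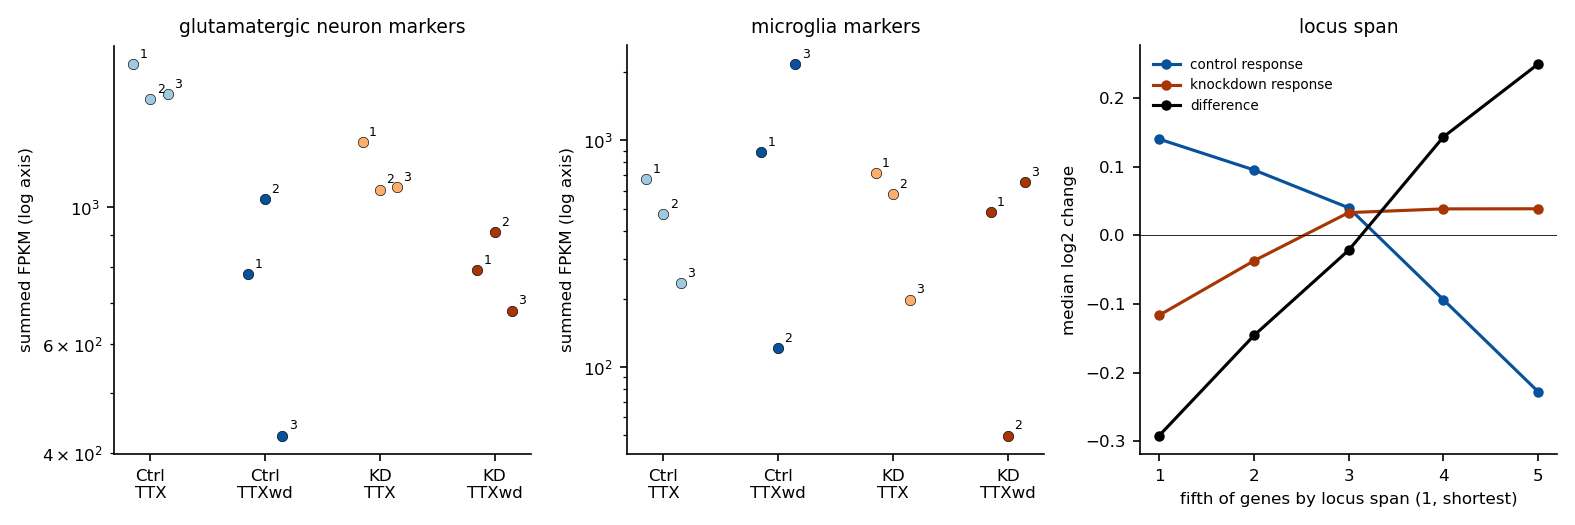
Summed FPKM of 17 glutamatergic neuron markers (left) and 15 microglia markers (middle) in each library, on log axes with the replicate number beside each point, and the median control response, knockdown response and difference in 5 groups of locus span (right, log2). Ctrl_TTXwd replicate 3 is the lowest library on the left (427 FPKM) and the highest in the middle (2174 FPKM), and the median difference goes from -0.29 in the group of shortest spans to 0.25 in the longest.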

How the data were processed

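RNA was measured in 12 libraries made with a stranded mRNA kit, per the labels' protocols. Per the submitters' processing notes, Trimmomatic, TopHat2, Cufflinks and Cuffdiff were used with genome build rn5, and versions, roles and annotation are not given in the sources used here. The authors deposited FPKM per library and group, a log2 ratio of the group values and a q-value (an adjusted p-value) for each comparison; the scaling between libraries is not given. The table's 18 symbols turned into dates were resolved through RefSeq accessions. The 1 gene left out had a mean over libraries more than 1% away from the deposited group value.

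limma 3.58.1 (R 4.3.3, eBayes with trend) was fitted to log2(FPKM + 1) with 1 coefficient per group over all 12 libraries (8 residual degrees of freedom). The 3 contrasts were the response in control, the response with knockdown and their difference, two-sided, adjusted by Benjamini-Hochberg over all genes tested, with a threshold of 0.05. A log2 difference on this scale understates the change of low genes. The fit was tested on simulated data with normal noise of the spread seen here. At an adjusted p under 0.05 it called 14 of 100 simulated response differences of 1 log2 unit and 70 of 100 of 2 log2 units. Of its 87 calls, 3 were false. Most 2-fold differences of that kind would thus be missed, so the absence of calls does not show equal responses. Genes were named by rule: the 12 smallest p per direction that reached 5 FPKM as the mean of a group, the 6 largest differences per direction whose response ranges did not overlap, up to 3 members of each list, and activity and MEF2 genes; other called list members were chosen after their values were seen. The members, the 33 lists and the rule were chosen with earlier results of these data known, so no pattern is independent support. Lists are described by counts and medians, without a test. The alternatives tried were no filter, a mean of at least 5 FPKM, a pseudocount of 0.1, median ratio and quantile scaling, robust variance, the replicate number as a block, a locus span correction, the 6 libraries of a response alone, and leaving out libraries. Some genes that the rule names are not reported here. Reads per library are unknown, so counting error is unknown. Python 3.11.15 with matplotlib 3.10.9 drew the plots.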

Additional observations from a re-analysis of the deposited data

How the results depend on the processing

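No gene had an adjusted p under 0.05 for the difference in any of 24 alternatives, the smallest adjusted p being 0.224. With single libraries or replicate numbers left out, genes at an unadjusted p under 0.05 numbered 193 to 887 positive and 185 to 760 negative, control calls 0 to 742 higher and 0 to 1285 lower, and knockdown calls 0 to 1026 higher and 0 to 1605 lower, the zeros arising when replicate 2 was left out of all groups and, for lower control calls, also replicate 3. With only the 6 libraries of a response, control had 1 higher and 0 lower calls and knockdown 910 and 1591. Quantile normalization gave 947 higher knockdown calls. Leaving out Ctrl_TTX replicate 1 and Ctrl_TTXwd replicate 3 together, chosen after seeing the data, gave 716 negative genes at an unadjusted p under 0.05 and knockdown calls of 1454 higher and 2079 lower. Of 135 named genes, 8 reversed in at least 1 alternative. Under the locus span correction Dusp6 was at 0.069, Fos at 0.088 and Grin3a at -0.19, and with a pseudocount of 0.1 Grin3a was at -0.013. With both libraries left out Grin3a was at -0.42 and Mef2d at -0.35. When libraries or replicate numbers were left out, Fos ran from -0.53 to 0.19, Grin3a from -0.57 to 0.49, Mef2d from -0.14 to 0.46, Fgfr3 from -1.08 to 0.18, Grin2d from -0.91 to 0.10, Hdac5 from -0.84 to 0.27 and Pfkl from -1.41 to 0.12. The replicate block left 0 adjusted calls, with 636 positive and 517 negative genes at an unadjusted p under 0.05, control calls of 817 and 1252 and knockdown calls of 553 and 1014. What libraries of the same number share is not stated, and the numbers were not taken to pair them: their deviations correlated at 0.617, 0.436 and 0.667 between Ctrl_TTX and KD_TTX but at -0.331, 0.875 and 0.563 between Ctrl_TTXwd and KD_TTXwd. The cause of these movements was not tested.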
